A study of Mus musculus with 44 samples.

Results

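Lactate and pyruvate are interconverted by lactate dehydrogenase, and the fate of pyruvate is set by its entry into the mitochondrion and by the pyruvate dehydrogenase complex. The 10 genes described here are the lactate dehydrogenases Ldha, Ldhb and Ldhd, the mitochondrial pyruvate carrier subunits Mpc1 and Mpc2, the subunits Pdha1 and Pdhb of the first enzyme of the complex, and the kinases Pdk1, Pdk2 and Pdk4 that switch it off. They were chosen by name for their role, with earlier results of these data known, their symbols were matched to gene identifiers, and all 10 were found among the 38202 genes measured and passed the filter on low counts in every comparison. Liver and skeletal muscle were taken from each of 22 mice, 11 WT and 11 Slc16a13 KO, and RNA sequencing of both gave 44 libraries. The mice were male C57BL/6N littermates killed when 20 weeks old, and every mouse, WT and KO, had received HFD for 15 weeks. The KO mice carried a constitutive CRISPR/Cas9 deletion of the promoter and first exons of Slc16a13, a plasma membrane lactate transporter, in every cell. The study's general procedure for killing was an overnight fast, and which muscle was taken is not given in the sources used here. No label says which mice shared a cage or a day, so p-values describe the spread between these mice only. For sequencing, 11 libraries were pooled, and which libraries shared a pool is not given in the sources used here. A pool may therefore coincide with a group.

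L-lactate is made from pyruvate when glycolysis outruns mitochondrial oxidation, and liver takes it up as a substrate for glucose synthesis. LDHA and LDHB are subunits of the same tetramer, of which LDHA-rich forms prevail in fast muscle and liver and LDHB-rich forms in heart and oxidative fibers, whereas LDHD oxidizes the D-isomer of lactate in mitochondria. MPC1 and MPC2 form a heterodimer in the inner mitochondrial membrane, and PDK kinases phosphorylate the E1 alpha subunit encoded by Pdha1, so that pyruvate is spared from oxidation. PDK4 is known as the kinase that fasting and fatty acids induce.

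The library totals ranged from 20150712 to 35218243 reads counted on genes. Slc16a13 itself had 99 to 302 reads in WT liver and 0 to 8 in KO liver (log2 fold change -5.45, standard error 0.30), with p = 2.8e-11 in the quasi-likelihood test of edgeR after the adjustment of Benjamini and Hochberg. In muscle it had 4 to 22 reads in WT libraries and 11 to 40 in those labelled KO (log2 fold change 0.64, standard error 0.22, edgeR adjusted p = 0.49). These counts were low in both muscle groups and did not fall in the libraries labelled KO. They do not show the deletion there and do not settle the label, for which reason these libraries are called muscle labelled KO below. The livers with 0 to 8 reads came from the same mice, and the one gene called between the muscle groups was Slc16a11, the neighbor of Slc16a13 on the chromosome (log2 fold change 2.03, standard error 0.31, edgeR adjusted p = 0.014), singled out after its value was seen. Reads were summed over the gene, and the deletion leaves part of the gene in place. In 4 of the 11 KO livers, log2 CPM (counts scaled to the library total, adjusted by the TMM method of edgeR) fell with gene length relative to the mean of all livers. The slopes per doubling of length were -0.53 for mouse 532, -0.42 for mouse 602, -0.25 for mouse 583 and -0.08 for mouse 611. The 11 WT livers had slopes of 0.04 to 0.10 and all muscle libraries lay between -0.07 and 0.05. These 4 KO livers stand apart from the rest, and liver results that rest on them are given with and without them. The tissue labels were checked against markers: the 5 hepatocyte markers summed to 70966 to 98542 CPM in liver and at most 7.48 CPM in muscle, and the 5 skeletal muscle fiber markers to 119880 to 177970 CPM in muscle and at most 54.5 CPM in liver.

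The promoters of Ldha, Ldhb, Pdk2 and Pdk4 are shown because these genes had tissue differences past the stricter call rule used below and are the isozyme partners compared there. RefSeq (GRCm38.p6) gave a promoter for all 10 genes, 14 in all, and the 250 bases before the start site are printed 5' to 3' on the strand of the gene. Capitals mark matches on either strand to the motifs ACGTG (core of the hypoxia response element), CACGTG (E-box), AGGTCA (a single 6-base nuclear receptor unit, not a full paired element), GGGCGG (GC box), GTAAACA (forkhead), CCAAT (a common promoter box) and TATAAA (the core promoter element). CACGTG contains ACGTG on both strands, so an E-box counts also as 2 ACGTG matches.
Ldha, chr7:46845554-46845803, plus strand: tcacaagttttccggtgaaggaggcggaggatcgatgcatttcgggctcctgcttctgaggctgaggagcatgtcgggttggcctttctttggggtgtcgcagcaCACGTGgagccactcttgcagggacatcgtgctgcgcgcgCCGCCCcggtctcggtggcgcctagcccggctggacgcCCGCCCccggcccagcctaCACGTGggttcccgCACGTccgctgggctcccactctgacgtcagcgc
Ldhb, chr6:142507958-142508207, minus strand: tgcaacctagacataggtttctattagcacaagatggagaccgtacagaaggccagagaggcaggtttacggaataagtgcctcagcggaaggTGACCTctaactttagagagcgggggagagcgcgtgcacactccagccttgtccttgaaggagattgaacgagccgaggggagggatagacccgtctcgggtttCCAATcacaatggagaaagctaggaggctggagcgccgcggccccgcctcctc
Pdk2, chr11:95041372-95041621, minus strand: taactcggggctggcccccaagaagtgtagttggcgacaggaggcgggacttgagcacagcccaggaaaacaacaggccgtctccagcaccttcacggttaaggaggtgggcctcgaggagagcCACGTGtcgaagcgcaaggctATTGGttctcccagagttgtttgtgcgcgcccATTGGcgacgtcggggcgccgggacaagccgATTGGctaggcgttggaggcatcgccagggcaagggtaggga
Pdk4, chr6:5496279-5496528, minus strand: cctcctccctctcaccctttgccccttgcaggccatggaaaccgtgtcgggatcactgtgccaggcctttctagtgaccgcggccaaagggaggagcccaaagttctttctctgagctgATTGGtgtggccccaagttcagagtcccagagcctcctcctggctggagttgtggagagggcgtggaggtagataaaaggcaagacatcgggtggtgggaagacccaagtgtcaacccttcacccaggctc
The Ldha window, the first of its 2 promoters in the table, held 2 E-boxes, 5 ACGTG matches and 2 GC boxes. The second promoter of Ldha and the first of Pdk2, which are not printed, had 0 matches to all 7 motifs. The Ldhb window had 1 nuclear receptor unit and 1 CCAAT box and none of the other 5 motifs. The Pdk2 window, the second of its 2 promoters in the table, had 1 E-box and 3 CCAAT boxes, and the Pdk4 window had a single CCAAT box. Over all 32851 promoters of this length, 16.6% held ACGTG, 6.02% the E-box, 14.02% the nuclear receptor unit, 32.7% the GC box, 12.4% TATAAA, 33.9% the CCAAT box and 3.17% the forkhead motif. A match describes the letters only.

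Ldha (ENSMUSG00000063229) was by far the main lactate dehydrogenase of both tissues. Its level, in the authors' reads normalized to gene length and library total (RPKM), ranged from 627 to 778 with a median of 677 in WT liver and from 1510 to 2007 with a median of 1754 in WT muscle. It was 621 to 957 (median 673) in KO liver and 1595 to 1863 (median 1795) in muscle labelled KO. No liver library reached the lowest muscle library, and by mean RPKM Ldha ranked 30th among all genes in WT muscle and 108th in WT liver. The share of all genes whose tissue ranges do not meet was not counted, for Ldha or for the genes below. Such gaps therefore cannot be read as particular to these genes. Ldhb (ENSMUSG00000030246) was close to absent from liver, at 1.14 to 2.26 RPKM in WT (36 to 92 reads) and 1.14 to 3.53 in KO. In WT muscle it was 7.48 to 82.0 RPKM (median 25.5) and in muscle labelled KO 14.1 to 86.5 (median 27.04), above every liver. Ldhb was thus 0.253% ± 0.054 of the summed Ldha and Ldhb RPKM in WT liver and 2.13% ± 1.48 in WT muscle (SD, n = 11 each). Ldhd (ENSMUSG00000031958) had the opposite tissue order, with 77.6 to 113 RPKM in WT liver, 78.7 to 104 in KO liver, 15.0 to 22.7 in WT muscle and 16.1 to 21.1 in muscle labelled KO. Exons of Ldhd overlap those of Znrf1 on the other strand (1118 reads in the median library); the kit marks strand, but how reads were counted is not given in the sources used here.

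The carrier genes were the most even of the group. Mpc1 (ENSMUSG00000023861) measured 127 to 181 RPKM in WT liver and 131 to 173 in WT muscle, and Mpc2 (ENSMUSG00000026568) 130 to 177 and 123 to 180. In muscle labelled KO they measured 139 to 163 and 128 to 195, both overlapping WT, and in KO liver Mpc1 measured 115 to 157 and Mpc2 146 to 331. Mpc1 made up 48.6% ± 3.9 of the summed carrier RPKM in WT liver and 50.1% ± 1.9 in WT muscle (SD, n = 11 each). The processed copy Mpc1-ps had 267 to 561 reads per library against 1399 to 3042 for Mpc1, so the level of Mpc1 is uncertain by the reads they may share. Pdha1 (ENSMUSG00000031299), which encodes the catalytic E1 alpha subunit, ranged from 53.7 to 72.3 RPKM in WT liver and from 165 to 231 in WT muscle. Pdhb (ENSMUSG00000021748), its beta partner, ranged from 46.5 to 69.0 and from 89.3 to 133. Pdha1 was 37.4 to 69.8 in KO liver and 181 to 247 in muscle labelled KO, and Pdhb 46.8 to 60.4 and 95.1 to 142. Neither gene's WT liver range met its muscle range, a gap for which the share of all genes was not counted. Pdha1 took 52.6% ± 2.1 of their sum in WT liver and 63.7% ± 1.0 in WT muscle (SD, n = 11 each).

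The kinases differed most in which isozyme was present. Pdk4 (ENSMUSG00000019577) was at 3.02 to 18.2 RPKM in WT liver, with a median of 4.69, and at 563 to 1467 in WT muscle, with a median of 1019, where it ranked 42nd of all genes. It was 1.43 to 14.9 in KO liver (median 3.58) and 852 to 1278 in muscle labelled KO (median 1021). Pdk2 (ENSMUSG00000038967) ranged from 55.1 to 74.1 RPKM in WT liver and from 227 to 259 in WT muscle. Pdk1 (ENSMUSG00000006494) ran the other way, at 21.7 to 50.6 in WT liver and 11.2 to 16.01 in WT muscle. Pdk2 was 52.9 to 79.0 in KO liver and 219 to 269 in muscle labelled KO, and Pdk1 11.6 to 49.7 and 11.4 to 16.4. The overlap of these Pdk1 ranges came from 3 of the 4 livers that stand apart, and the other 7 KO livers, at 24.3 to 49.7, lay above every muscle in RPKM. For Pdk1 the authors' counts and RPKM imply a shorter gene length in WT liver (2727 bases) than in WT muscle (4659 bases). This raises its RPKM in liver relative to muscle. Whether its reads per library total also part the tissues was not counted. The shares that follow include Pdk1 and carry the same limit. Of the summed RPKM of the 4 kinase genes with Pdk3, Pdk2 took 60.4% ± 5.8, Pdk1 32.6% ± 3.4 and Pdk4 6.60% ± 4.65 in WT liver, while Pdk4 took 79.3% ± 4.4, Pdk2 19.6% ± 4.2 and Pdk1 1.08% ± 0.20 in WT muscle (SD, n = 11 each). The order of the kinases was therefore Pdk2, Pdk1, Pdk4 in WT liver and Pdk4, Pdk2, Pdk1 in WT muscle, with no library of WT muscle in which Pdk4 fell below 69.8% of the sum.

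**Figure D1:**
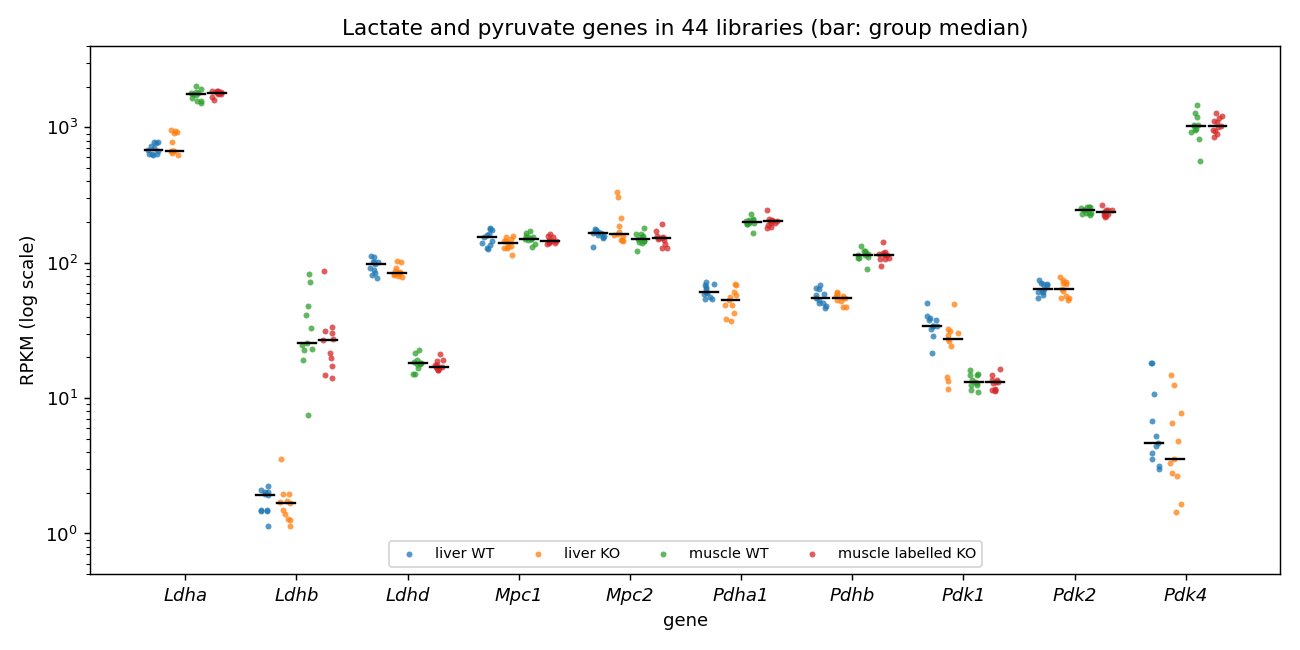
RPKM (log scale) of the 10 genes in 44 libraries, 11 per group; each point is a library and the black bar is the group median. Ldhb and Pdk4 are far lower in liver than in muscle and spread widely within a group, Mpc1 and Mpc2 lie at the same height in both tissues, and Ldhd and Pdk1 are higher in WT liver.

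The tissue comparison asked how the members differ between liver and muscle of the same mice. It was fitted over all genes, without a term for the mouse. With the animal as replicate block, the log2 fold change of WT liver over WT muscle was -7.34 for Pdk4 (standard error 0.26) and -4.19 for Ldhb (0.22). In WT mice 8 of the 10 members passed the test, 2 higher and 6 lower in liver, where 91.0% of the 13907 genes tested passed (45.5% higher and 45.5% lower), so that a pass alone says little about these genes. The stricter rule, a fold change tested against 2-fold, was passed by 51.0% of all genes (26.6% higher and 24.4% lower in liver) and by 1 member higher and 5 members lower in liver. The log2 fold change of liver over muscle was -7.07 for Pdk4 (standard error 0.37) and -4.33 for Ldhb (0.31). It was -1.86 for Pdk2 (0.04), -1.66 for Pdha1 (0.05) and -1.29 for Ldha (0.07), all of which, with Ldhd at 2.48 (0.07), were past the stricter rule. Pdhb at -0.99 (0.06) and Pdk1 at 0.68 (0.06) passed only the first rule. Mpc1 at 0.05 (95% interval -0.07 to 0.17, adjusted p = 0.40 from edgeR) and Mpc2 at 0.05 (95% interval -0.06 to 0.17, adjusted p = 0.38 from edgeR) passed neither. The median over the members was -1.14, and over all genes 0.00. For Pdk1 the value depended on the unit: in the RPKM table the log2 difference was 1.37 at a pseudocount of 0.1, and the gene length implied by the authors' counts and RPKM was 2727 bases in WT liver and 4659 bases in WT muscle. Liver holds little muscle RNA and the reverse: Acta1 in WT liver was 0.0055% of its muscle level where Pdk4 was 0.72% and Ldhb 4.79%, and Alb in WT muscle was 0.0013% of its liver level where Ldhd was 18.3%. In bulk tissue, fewer cells of a type and less RNA per cell cannot be told apart.

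KO liver against muscle labelled KO, from 11 mice that share no sample with the WT comparison, gave log2 fold changes of -7.46 for Pdk4 (standard error 0.39), -4.06 for Ldhb (0.27), -1.83 for Pdha1 (0.08), -1.75 for Pdk2 (0.07), -1.09 for Ldha (0.10), -0.94 for Pdhb (0.07) and 2.51 for Ldhd (0.06). There 9 of 10 members passed the test (3 higher and 6 lower in liver) against 86.7% of all genes (43.9% and 42.8%), and 1 higher and 4 lower passed the stricter rule against 49.5% of all genes (25.7% and 23.7%). Ldha did not pass the stricter rule there (adjusted p = 0.15 from edgeR), and without the 4 mice whose livers stand apart it was at -1.26 (95% interval -1.45 to -1.07), for which the stricter rule was not run. Pdk1 was at 0.41 (0.11, adjusted p = 0.0012 from edgeR) and at 0.59 without those 4 mice. Mpc2 was at 0.45 (0.15, adjusted p = 0.0062 from edgeR), and at 0.11 (adjusted p = 0.084) without those 4 mice.

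The other genes of lactate and pyruvate metabolism were taken from a list of 29, of which 28 were in the tables and 27 were tested between WT tissues. Of these, 26 passed, 11 higher and 15 lower in liver, against 91.0% of all genes. The stricter rule was passed by 9 in each direction, against 51.0% of all genes (26.6% higher and 24.4% lower). Between KO liver and muscle labelled KO 24 of 27 passed, 11 higher and 13 lower, against 86.7% of all genes. Here too a pass alone says little about these genes. Those lower in liver with the smallest p were led by Pkm, the muscle pyruvate kinase, at a log2 fold change of -7.49 (standard error 0.11). In the complex itself, the E2 subunit gene Dlat was at -1.81 (0.05). The phosphatase gene Pdp1, whose product reverses the action of the kinases, was at -5.93 (0.12). The mitochondrial malic enzyme gene Me3 was at -8.41 (0.14), but it was too low in liver to pass the filter there. Of the monocarboxylate transporters, Slc16a3, which encodes the transporter of glycolytic muscle, was at -9.0 (0.15) and Slc16a7 at 8.31 (0.16), the latter likewise too low in muscle. Gpt, alanine aminotransferase, was at 4.16 (0.07), Pcx, pyruvate carboxylase, at 3.38 (0.06), and the glyoxalase genes Glo1 and Hagh, whose pathway ends in D-lactate, the substrate of LDHD, at 2.08 (0.06) and 2.69 (0.05).

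The comparison of KO with WT liver asked whether loss of a lactate transporter goes with altered RNA of the genes that handle lactate. None of the 10 members passed the adjusted threshold in edgeR or in DESeq2, where 0.0231% of all genes did in edgeR (3 of 13005: Slc16a13, Scp2-ps2 and Mup5, named after their values were seen). Unadjusted p under 0.05 was reached by 4 members against 12.9% of all genes. Mpc2 had a log2 fold change of 0.31 (standard error 0.14) and Ldha of 0.21 (0.09), and Pdk1 was at -0.28 (0.12) and Pdha1 at -0.18 (0.08), each with an adjusted p of 0.38 from edgeR. The intervals of the other members were narrow except for the variable genes: -0.15 to 0.09 for Ldhd, -0.20 to 0.08 for Mpc1, -0.12 to 0.17 for Pdhb and -0.05 to 0.20 for Pdk2, but -0.36 to 0.21 for Ldhb and -1.20 to 0.46 for Pdk4. The median over the members was -0.05 and over all genes -0.01.

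Library by library, these 4 members were set beside the livers that stand apart. Mpc2 measured 186 to 331 RPKM in those 4, all above the highest of the 11 WT livers (177), and 146 to 167 in the other 7 KO livers, within the WT range of 130 to 177. Pdha1 measured 37.4 to 52.7 RPKM in the 4, all below the lowest WT liver (53.7), and 48.4 to 69.8 in the other 7, of which 2 were below it. Pdk1 measured 11.6 to 27.2 in the 4, 3 of them below every WT liver, and 24.3 to 49.7 in the other 7, none of them below. The length implied for Pdk1 was 2727 bases in WT liver and 2949 in KO liver, so its RPKM also reflects the length used. For Ldha, 3 of the 4 and 2 of the other 7 were above every WT liver, with 646 to 945 RPKM in the 4 and 621 to 957 in the 7. The share of all genes outside the WT range in these livers was not counted, so these counts cannot be read as particular to the members. Without the 4 livers no member passed the adjusted threshold in edgeR, which 0.0227% of all genes did, and none reached an unadjusted p under 0.05, which 2.96% of all genes did, and the log2 fold changes were -0.03 for Mpc2 (95% interval -0.15 to 0.09), 0.08 for Ldha (-0.07 to 0.23), -0.11 for Pdk1 (-0.31 to 0.08) and -0.06 for Pdha1 (-0.20 to 0.08). Mpc2, with a gene length of 617 bases, is far shorter than the median tested gene (2412 bases), and Pdha1 (2840) and Pdk1 (3934) are longer. Mpc1 is shorter still, at 522 bases, and measured 115 to 151 RPKM in the 4 livers and 128 to 157 in the other 7. These lengths are medians over the libraries of both tissues, and the length implied for Pdk1 in liver, given above, is closer to 2412 bases. The removal of gene length that follows used 3934 bases for Pdk1. With the dependence on gene length taken out of each library, Mpc2 was at 0.06, Ldha at 0.14, Pdha1 at -0.13, Pdk1 at -0.17 and Mpc1 at -0.24 on the log2 scale. Of these, Mpc1 (95% interval -0.44 to -0.04, p = 0.0197 from edgeR) and Pdk1 (p = 0.0394 from edgeR) reached an unadjusted p under 0.05, each with an adjusted p of 0.53. The source of the length dependence was not tested.

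**Figure D2:**
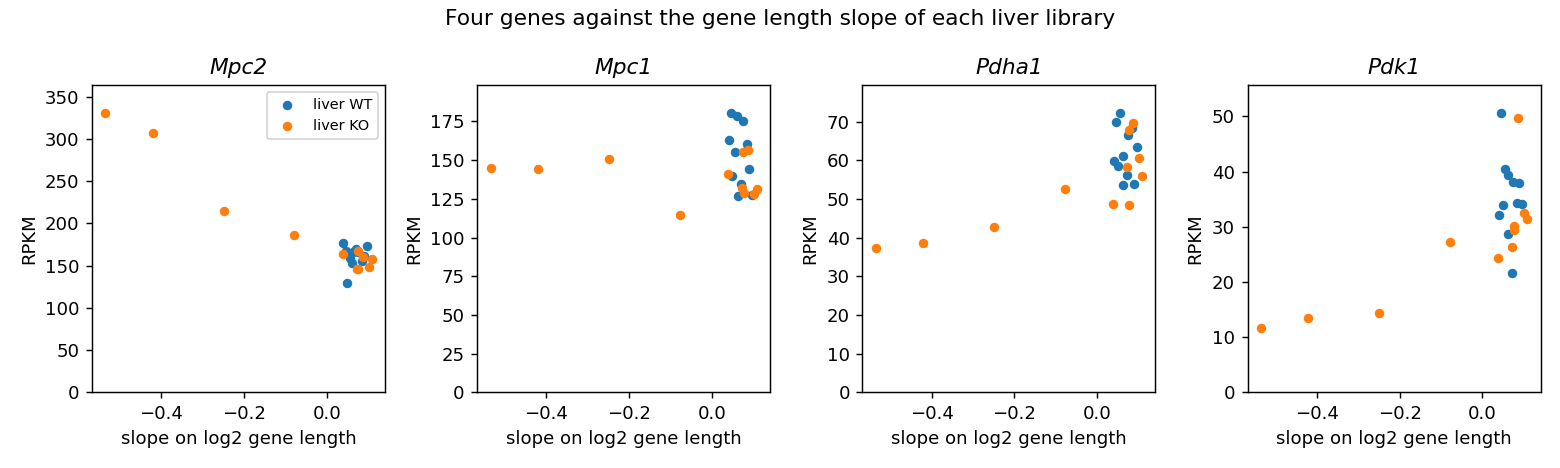
RPKM of Mpc2, Mpc1, Pdha1 and Pdk1 in 11 WT and 11 KO livers against the slope of each library's log2 CPM on log2 gene length; each point is a library. The 4 KO livers with slopes below 0 hold the highest Mpc2 values (186 to 331) and the 3 lowest Pdk1 values, while the other 7 overlap WT. Mpc1 in the same 4 livers is at 115 to 151. The RPKM of Pdk1 does not rest on one fixed length, so its values also reflect the length used.

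Pdk4 in liver was also lower in the livers that stand apart, where 3 of 4 were below every WT liver and the range was 1.43 to 4.82 RPKM, against 2.64 to 14.9 in the other 7. The share of all genes was not counted here either. The log2 fold change of Pdk4 moved from -0.37 (standard error 0.40) to -0.01 (0.42) without the 4 livers. Ldhb moved from -0.07 (0.14) to -0.22 (0.13). Markers of other cells in these livers were also measured: 3 of the 5 macrophage markers were higher in KO liver at an unadjusted p under 0.05 and none passed the adjusted threshold, and the list summed to 204 to 277 CPM in WT and 183 to 541 CPM in KO. Of the other 6 marker lists, 4 had a single gene at an unadjusted p under 0.05 and 2 had none, and without the 4 livers 1 macrophage marker, Csf1r, was. All 4 skeletal muscle fiber markers then tested were also lower in KO at an unadjusted p under 0.05, with a list sum of 1.71 to 54.5 CPM in WT liver and 0.117 to 18.4 in KO liver. Their part in the member values was not tested. Of 26 other pathway genes tested in liver, 0 passed the adjusted threshold in edgeR and 4 reached an unadjusted p under 0.05: Pklr at -0.61 (standard error 0.20), Me1 at -0.30 (0.11), Bsg at 0.23 (0.09) and Hagh at 0.24 (0.11) on the log2 scale. Without the 4 livers, 0 of 26 did. Of 8 regulator genes tested in liver, 0 passed the adjusted threshold in edgeR and 0 reached an unadjusted p under 0.05, and the 3 with the smallest p were Nr3c1 at -0.21 (0.14), Hif1a at -0.25 (0.17) and Ppargc1a at -0.28 (0.20). Without the 4 livers 1 of the 8 did, Esrra, and 0 passed the adjusted threshold. Of 10 fasting genes tested there, 0 passed and 2 were higher in KO liver at an unadjusted p under 0.05, Angptl4 at 0.38 (0.16) and Acot1 at 0.49 (0.21), and without the 4 livers 0 were.

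In muscle, 0 of the 10 members passed the adjusted threshold and 0 reached an unadjusted p under 0.05 in edgeR, against 0.00754% and 8.64% of the 13266 genes tested. The single gene called was Slc16a11, given above. Apart from Ldhb at -0.33 (standard error 0.32, 95% interval -0.99 to 0.32), each log2 fold change lay between -0.07 and 0.02. Pdk4 was at 0.02 (95% interval -0.20 to 0.25), Ldha at 0.02 (-0.10 to 0.14) and Pdk1 at 0.00 (-0.08 to 0.08). Without the 4 mice whose livers stand apart, the muscle value of Ldhb was -0.49. Of 25 other pathway genes tested in muscle, 0 passed and 0 reached an unadjusted p under 0.05, and the 3 with the smallest p were Pck1 at 0.88 (standard error 0.48), Pdk3 at 0.43 (0.24) and Pck2 at 0.21 (0.14). Of the 8 regulators, 1 reached an unadjusted p under 0.05 in muscle, Esrra at -0.21 (0.08), and of 8 fasting genes none did. The difference of the genotype effect between tissues was tested directly with all 44 libraries: 0 members passed (0.00678% of 14739 genes did), and Mpc2 at 0.39 (p = 0.0166 from edgeR) and Pdk1 at -0.28 (p = 0.0370 from edgeR) reached an unadjusted p under 0.05, as 16.2% of all genes did. Without both tissues of the 4 mice whose livers stand apart, Mpc2 was at 0.06 (p = 0.50 from edgeR) and Pdk1 at -0.10 (p = 0.39 from edgeR).

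**Figure D3:**
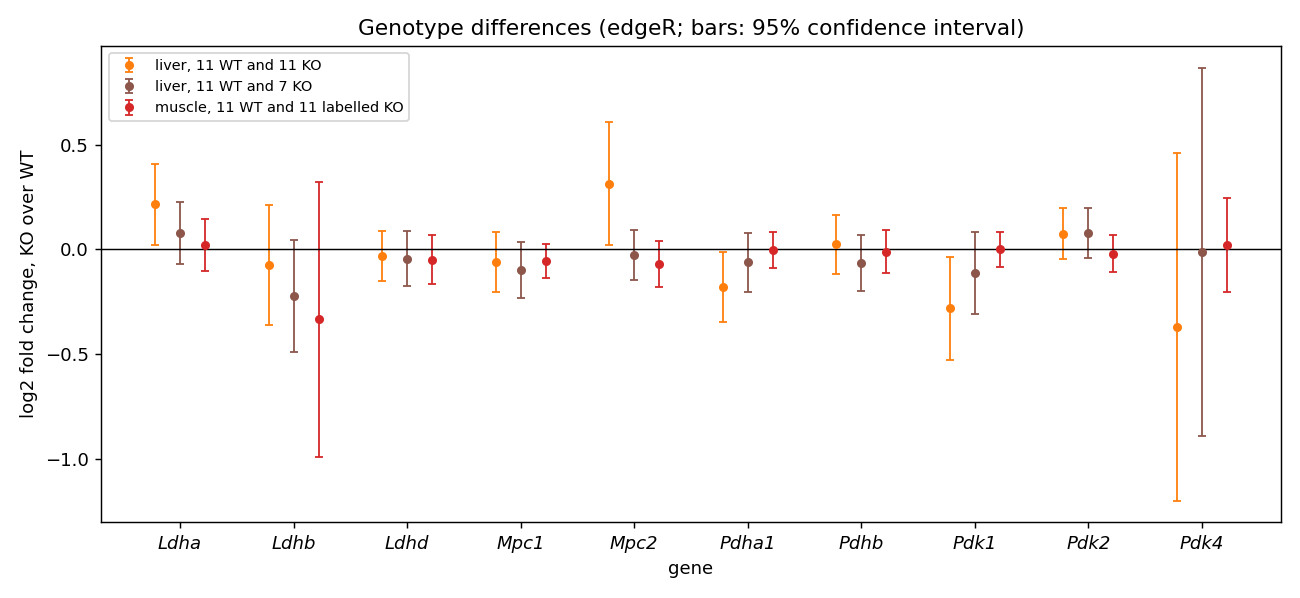
Log2 fold change of the libraries labelled KO over WT for the 10 members in liver (all libraries, and without the 4 KO livers that stand apart) and in muscle; points are edgeR estimates and bars 95% confidence intervals. The liver intervals of Ldha, Mpc2, Pdha1 and Pdk1 leave out 0 with all libraries and include it with 7 KO livers, and Pdk4 in liver and Ldhb in muscle have the widest intervals.

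Spread between mice set 2 members apart. Over the 11 WT livers the SD of log2 CPM was 0.92 for Pdk4, larger than that of 98.6% of genes, and 0.07 for Pdk2, larger than that of 4.998% of genes. Over the 11 WT muscles it was 0.92 for Ldhb, larger than that of 99.1% of genes, and 0.35 for Pdk4. In WT liver the highest Pdk4 was in mouse 623 (18.2 RPKM) and mouse 624 (18.1), followed by mouse 528 (10.8), with the remaining 8 at 3.02 to 6.72. The same mice 624 and 623 had the highest Pdk4 in WT muscle (1467 and 1283), and mouse 516 had the lowest (563). Across the 11 WT mice liver and muscle Pdk4 had r = 0.56 (permutation p = 0.0739) and rho = 0.41 (permutation p = 0.215), with 0.92 and 0.86 as their Benjamini-Hochberg adjusted values over 20 relations, and r = 0.03 without the 2 mice farthest from the median in liver. The size of r in WT mice thus depended on 2 mice, whose removal also narrows the range. The relation did not pass the threshold. In the 11 mice labelled KO r was 0.39 (permutation p = 0.231, adjusted 0.92) and rho 0.37 (permutation p = 0.262, adjusted 0.86), and no other member's liver and muscle values passed the threshold in either genotype.

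**Figure D4:**
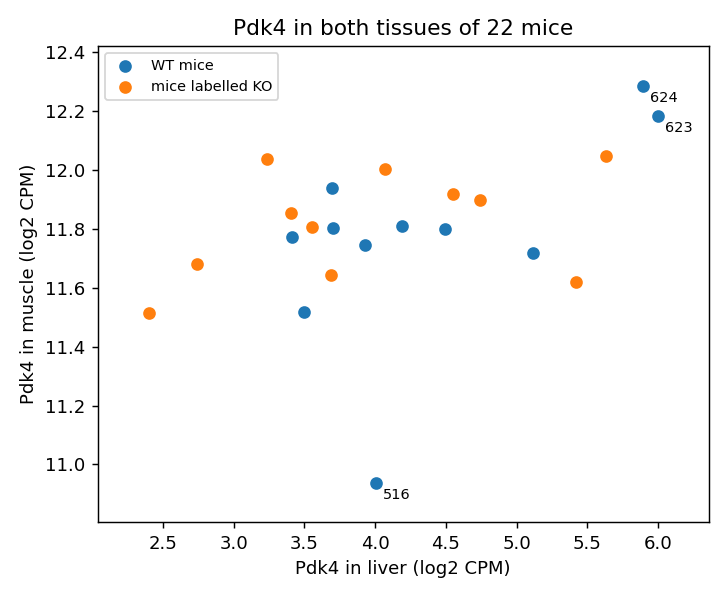
Pdk4 in liver against Pdk4 in muscle (log2 CPM) in 11 WT mice and 11 labelled KO; each point is a mouse. The WT mice 623 and 624 are the highest in both tissues and mouse 516 is the lowest in muscle.

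The genes most like Pdk4 over the 11 WT livers, by Spearman rho of log2 CPM among 13005 genes, were Serpinb6b (rho = 0.98), Btg2 (0.94), Rnf125 (0.93), Cisd1 (0.93) and Proca1 (0.93). In WT muscle, among 13266 genes, those most like Pdk4 were Synj1 (0.95), Adck2 (0.95), Ankfy1 (0.93), Yap1 (0.92) and Aifm1 (0.92). For Ldhb in muscle they were Tmem65 (0.99), Fabp3 (0.97), Slc25a34 (0.97), Acadvl (0.96) and Acadl (0.96), where Fabp3 encodes the heart fatty acid binding protein and Acadvl and Acadl are acyl-CoA dehydrogenases of fatty acid oxidation. In liver, with 36 to 92 reads per WT library, those most like Ldhb were Spry1 (0.94), Ipp (0.93), Prpf19 (0.91), Prickle2 (0.90) and Spib (0.89). These are descriptions over 11 libraries, which differ in depth (20150712 to 33733103 reads in WT liver and 21810239 to 33807727 in WT muscle), with no test.

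Because LDHB prevails in oxidative fibers, Ldhb in muscle was set beside 6 tested genes of a slow fiber list (Myh7, Tnnt1, Tnni1, Tnnc1, Myl2 and Atp2a2). Ldhb was highest in WT muscle of mouse 624 (82.0 RPKM) and mouse 531 (72.3) and lowest in mouse 528 (7.48), and in mouse 611 among the libraries labelled KO (86.5, against 14.1 to 33.3 in the other 10). The whole slow fiber list summed to 369 CPM in mouse 531 and to 45.3 to 62.4 in the other 10 WT muscles. The mean of the 6 tested genes was 5.05 log2 CPM in mouse 531 and -1.78 to 1.43 in the other 10, so some of these genes were low. Atp2a2 was also higher in WT liver than in WT muscle (log2 fold change 2.42, standard error 0.18), so it is not particular to slow fibers. In WT muscle Ldhb had r = 0.79 (permutation p = 0.0108, adjusted 0.0434) and rho = 0.74 (permutation p = 0.0127, adjusted 0.0872) with the mean of the list, and r = 0.70 without the 2 mice farthest from the median, over 8 relations tested. Ldha had r = -0.68 (permutation p = 0.00175, adjusted 0.0140) and rho = -0.65 (permutation p = 0.0372, adjusted 0.0872), and r = -0.59 without the farthest 2. In muscle labelled KO, Ldhb had r = 0.74 (permutation p = 0.0171, adjusted 0.0456) and rho = 0.64 (permutation p = 0.0414, adjusted 0.0872), but r = 0.20 without the farthest 2. There the size of r depended on 2 libraries, whose removal also narrows the range. Hence r passed the threshold for 3 of the 8 relations and rho for 0, and with log2 RPKM both passed for Ldha and Ldhb in WT muscle. Pdk4 and the fasting list were not past the threshold in liver or muscle of either genotype.

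**Figure D5:**
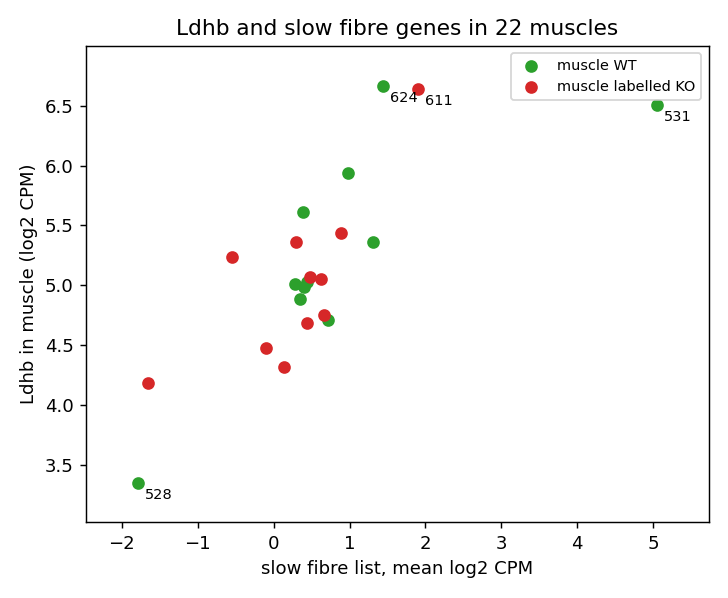
Ldhb (log2 CPM) against the mean log2 CPM of the slow fiber list in 11 WT muscles and 11 muscles labelled KO; each point is a library. Mouse 531 is far to the right, mouse 624 and mouse 611 are the highest in Ldhb of their groups, and mouse 528 is the lowest.

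Between genotypes, 5 of the 6 tested slow fiber genes reached an unadjusted p under 0.05 in muscle, all lower in the libraries labelled KO, with Myh7, the slow myosin heavy chain, at -3.60 (standard error 1.03, adjusted p = 0.49 from edgeR), and 0 passed the adjusted threshold. Without mouse 531, 0 of 6 did, the list median was -0.01, Myh7 was at -0.30 and Ldhb at -0.19 on the log2 scale. The part of the slow fiber genes in the Ldhb values was not tested.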

How the data were processed

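RNA was sequenced from liver and muscle of 22 mice (44 libraries), and groups and animal numbers were taken from the labels. The authors deposited raw read counts per gene, not normalized, and RPKM values that they computed per kilobase and library size. The submitters' notes name limma; the aligner, counter and genome build are not given in the sources used here. Dividing counts by RPKM gave, for 45.4% of values, a length more than 1% away from the gene's own median, so RPKM is not count over a fixed length. A gene identifier table named 36340 of 38202 genes. Levels are the authors' RPKM; differences were tested on counts in R 4.3.3 with edgeR 4.0.16 (TMM, filterByExpr, the quasi-likelihood test, p adjusted over all genes tested after Benjamini and Hochberg, threshold 0.05; the stricter rule was glmTreat against a log2 fold change of 1). On the log2 scale CPM used library totals adjusted by TMM and a prior count of 2. CPM summed over a list or averaged over libraries used the plain library totals. Relations across mice used two-sided permutation tests with 100000 resamples. The scripts were tested on simulated counts.

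The alternatives were DESeq2 1.42.0, limma 3.58.1 (voom), library size scaling, no filter, a minimum of 10 counts, gene length removed as a loess offset (span 0.3), RPKM with pseudocounts of 0.1 and 1, the 4 livers that stand apart left out, each library left out, and the animal as replicate block. Where both tissues entered a fit, the muscles of the same 4 mice were left out with their livers. The same animal number in both tissues names the same mouse. The deviations from group means correlated at 0.10 on average within a mouse and at -0.01 between mice of a genotype. Within single mice the correlation ranged from -0.03 to 0.26 and was over 0.1 in 12 mice. It therefore does not settle the pairing of each mouse. Libraries were compared before averaging: 0 pairs were identical, and the lowest chi-square per gene was 4.47. The text names all 10 members and the deleted gene; from fixed lists of pathway, regulator, fasting and slow fiber genes, up to 5 per direction past the threshold by smallest p, and otherwise 3 (here also those with unadjusted p under 0.05); and the 5 genes most like each of the 2 most variable members of a tissue. The members and lists were chosen with earlier results of these data known. Ldhal6b was not analysed here, and Ldhc did not pass the filter.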

Additional observations from a re-analysis of the deposited data

Results flagged for a closer look

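The genotype difference in Slc16a13, the deleted gene, itself differed between the tissues: the interaction was -6.08 on the log2 scale (standard error 0.38, adjusted p = 5.9e-16 from edgeR), with a log2 fold change of -5.45 in liver and 0.64 in muscle, and 11 of 11 KO livers lay below every WT liver. In WT muscle Slc16a13 had only 4 to 22 reads, against 99 to 302 in WT liver, which left little room for a fall in muscle. The interaction therefore does not show whether the deletion was present in muscle. Slc16a13 was the only gene of 14739 to pass the interaction test in edgeR, and none of the 10 lactate and pyruvate genes did.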

How the results depend on the processing

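No lactate or pyruvate gene passed the adjusted threshold between genotypes under any alternative run, and the tissue calls kept their direction except where given. The count of all genes called in liver was 6 with DESeq2 and 1 with at least 10 counts in every library, against 3. In muscle, 0 genes were called with limma-voom, with no filter, with at least 10 counts, with RPKM at either pseudocount and without the 4 mice whose livers stand apart (added after seeing the data), against 1. For the interaction, 44 were called with DESeq2, 3 with library size scaling and 0 with at least 10 counts, against 1. Relations to marker lists past the threshold in both r and rho were 2 with log2(RPKM + 0.1), against 0. The cause of these changes was not tested. With the animal as replicate block, supported by the animal numbers in the labels, 12674 genes were called between WT tissues (12653 without it), 12107 between KO tissues (12117 without it) and 1 in the interaction, and no member's call changed. Members near 0 changed sign. In liver, on the log2 scale, Ldhd was 0.0279 with gene length removed, Mpc2 -0.0291 without the 4 livers, Pdhb -0.0439 with library size scaling, -0.0493 with gene length removed, -0.0373 and -0.0368 with RPKM at pseudocounts 0.1 and 1, and -0.0652 without the 4 livers, and Pdk2 -0.0117 and -0.0114 with RPKM. In muscle, Mpc2 was 0.0022 with RPKM at either pseudocount. Pdha1 was 0.0173 with library size scaling, 0.0007 with at least 10 counts and 0.0166 and 0.0165 with RPKM. Pdhb was 0.0074 with library size scaling and 0.0069 and 0.0068 with RPKM. Pdk1 was 0.0013 with DESeq2, 0.0176 with library size scaling and 0.0021 with at least 10 counts. In the KO tissue comparison Mpc1 was -0.0674 with library size scaling and -0.0868 and -0.0862 with RPKM, and Mpc2 lost its call without the 4 mice (0.11); library size scaling shifted the median of all genes there by -0.11. In the interaction, with library size scaling Ldhd was -0.0638, Mpc1 -0.0905 and Pdhb -0.0512. Mpc1 was -0.0087 with no filter, -0.0041 with at least 10 counts and -0.0293 without the 4 mice, and Pdhb -0.0424 without them. With each of 22 mice left out in turn, all genes called stayed at 3 to 3 in liver and 1 to 1 in muscle, members called at 0 to 0, liver Mpc2 ranged from 0.22 to 0.35, Pdk4 from -0.61 to -0.13 and Ldhb from -0.17 to -0.03, and muscle values from -0.61 to -0.15 for Ldhb, -0.0025 to 0.0474 for Ldha, -0.0245 to 0.016 for Pdha1, -0.0393 to 0.0122 for Pdhb, -0.0178 to 0.0168 for Pdk1, -0.0407 to 0.0013 for Pdk2 and -0.0438 to 0.0778 for Pdk4. Depth limits Ldhb in liver (33 to 97 reads per library).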
